A study of Homo sapiens with 6 samples.

Results

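The genes described here are 38 interferon-stimulated antiviral effectors, chosen by name from a table of 58884 gene identifiers, all 38 of which were matched. They were read in 6 RNA sequencing libraries of established human thyroid cancer lines, 1 library per condition, made from total RNA. BHT-101, an anaplastic thyroid carcinoma line, and FTC-133, a follicular thyroid carcinoma line, were each transfected with a small interfering RNA (siRNA) that targets CRABP2, called siCRABP2, or with a control, called siControl. The anaplastic carcinoma line 8505C received a CRABP2-overexpressing vector (CRABP2 vector) or an empty vector. CRABP2 encodes a carrier of retinoic acid to its nuclear receptors, and the study asked what changes when its level is lowered or raised. The number and sequences of the siRNAs, the hours after transfection, and whether the 8505C cultures were clones or pools are not given in the labels. Nothing there says that cultures of a line were grown separately.

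Interferons are secreted proteins that cells release on sensing viral nucleic acid or damage. Type I and type III interferons bind receptors that activate JAK1 and TYK2, and a complex of STAT and IRF proteins then binds interferon-stimulated response elements, short DNA motifs with repeated GAAA cores, beside many genes. The genes read here are products of that response. They bind viral RNA (IFIT family), make the second messenger that activates RNase L (OAS family), trap viral capsids or nucleoproteins (MX proteins), conjugate ISG15 to proteins, block entry or release of virus particles at membranes (IFITM proteins, BST2) or deplete and alter nucleotides (RSAD2, CMPK2).

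Because a response element is the textbook link between these genes, their promoters were searched for it. Windows of RefSeq on build GRCh38.p14, running from 250 bases before to 50 bases after a gene's start, were available for 31 of the 38 genes. The motif was GAAANNGAAA, or TTTCNNTTTC where it lies on the other strand, and both strands were searched. It was present in at least 1 window of 25 of these 31 genes (80.65%), and 12 of them held 2 or more matches. Over all 27305 genes in the same table, 4.376% held it, and over all 35116 windows, 3.574% did. IFIT2, OAS2, OASL, MX2, USP18, IFITM2 and TRIM22 have no window in that table. The 5 windows printed here run 5′ to 3′ along the gene, with matches in capitals, and show how the motif sits in the promoters of the genes with the largest mean difference under CRABP2 siRNA: 4 that hold it, and OAS1, the largest without it. The IFI6 window is chr1:27672143-27672442 on the minus strand, that of IFITM1 chr11:313790-314089 on the plus strand, that of IFI27 chr14:94110486-94110785 on the plus strand, that of MX1 chr21:41420308-41420607 on the plus strand and that of OAS1 chr12:112906712-112907011 on the plus strand.
IFI6: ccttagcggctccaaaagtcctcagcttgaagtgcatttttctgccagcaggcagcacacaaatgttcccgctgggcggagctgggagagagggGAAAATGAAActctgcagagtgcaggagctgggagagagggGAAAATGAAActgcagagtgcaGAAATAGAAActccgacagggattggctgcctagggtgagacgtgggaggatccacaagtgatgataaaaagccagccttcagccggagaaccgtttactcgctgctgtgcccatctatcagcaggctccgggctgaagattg
IFITM1: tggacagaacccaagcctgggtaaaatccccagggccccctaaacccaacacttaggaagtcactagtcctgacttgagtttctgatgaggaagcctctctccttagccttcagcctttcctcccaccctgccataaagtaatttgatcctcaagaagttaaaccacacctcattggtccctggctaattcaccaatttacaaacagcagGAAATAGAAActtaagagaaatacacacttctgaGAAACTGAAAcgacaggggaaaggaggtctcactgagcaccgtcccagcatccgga
IFI27: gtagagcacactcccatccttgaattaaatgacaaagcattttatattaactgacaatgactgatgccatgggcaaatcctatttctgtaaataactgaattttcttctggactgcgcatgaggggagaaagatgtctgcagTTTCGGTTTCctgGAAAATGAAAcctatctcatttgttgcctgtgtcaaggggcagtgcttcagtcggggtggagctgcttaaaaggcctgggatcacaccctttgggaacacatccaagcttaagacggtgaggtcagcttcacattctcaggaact
MX1: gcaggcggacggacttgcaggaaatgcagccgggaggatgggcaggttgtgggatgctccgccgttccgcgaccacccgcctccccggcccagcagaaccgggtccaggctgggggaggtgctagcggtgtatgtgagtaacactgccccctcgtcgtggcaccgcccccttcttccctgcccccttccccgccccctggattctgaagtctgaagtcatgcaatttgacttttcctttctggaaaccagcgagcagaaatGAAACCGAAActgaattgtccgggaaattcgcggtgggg
OAS1: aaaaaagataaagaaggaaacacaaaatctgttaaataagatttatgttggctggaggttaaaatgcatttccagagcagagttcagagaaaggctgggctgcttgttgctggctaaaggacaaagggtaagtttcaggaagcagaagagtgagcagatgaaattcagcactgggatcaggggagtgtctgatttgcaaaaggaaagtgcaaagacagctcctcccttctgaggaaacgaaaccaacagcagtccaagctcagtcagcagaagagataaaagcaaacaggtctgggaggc
The IFI6 window held 3 matches, at positions -156 to -93 relative to the start, all on the gene's own strand. IFITM1 held 2 on its own strand, the nearer one at -6. In IFI27 a match on the opposite strand at -108 lay beside one on the gene's strand at -95, and in MX1 the match began 11 bases after the start. OAS1 held no such letters in this window. It does hold 2 GAAA cores with 1 base between them, which the motif, with 2 bases between, does not count. A match is a description of the sequence and not a shown binding site.

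The values are FPKM, reads scaled to exon length and to library depth, so that levels can be compared between genes. Differences are given on the log2(FPKM + 1) scale, which understates those of low genes. CRABP2 moved as the labels say, with 11.4 FPKM with siCRABP2 against 27.3 FPKM with siControl in BHT-101, 0.170 FPKM with siCRABP2 against 8.94 FPKM with siControl in FTC-133, and 38.04 FPKM with the CRABP2 vector against 0.607 FPKM with the empty vector in 8505C. Library totals recovered from the values were between 22084110 and 27958622 reads. The keratins KRT8 and KRT18 were above 18 FPKM in every library, while the epithelial cadherin CDH1 stayed below 1 FPKM in FTC-133 and 8505C and EPCAM below 1 FPKM in 8505C. The thyroid markers TG, TSHR, FOXE1 and SLC5A5 stayed below 1 FPKM in all 6. The thyroid factor PAX8 exceeded 1 FPKM in FTC-133 alone, and NKX2-1, another thyroid factor, was between 12.4 and 22.6 FPKM in FTC-133 and 8505C and had no read in BHT-101. Of 8 blood cell markers 1, CD14, reached 1 FPKM. Of 6 endothelial and fibroblast markers, 3 reached 1 FPKM in at least 1 library. COL1A1 was 24.1 FPKM with siCRABP2 and 39.6 FPKM with siControl in FTC-133. CDH5 was 2.46 FPKM with the CRABP2 vector and 1.99 FPKM with the empty vector in 8505C. PECAM1 did not exceed 1.07 FPKM. In bulk RNA, fewer expressing cells and less RNA per cell cannot be told apart.

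Both CRABP2 knockdowns were accompanied by higher levels of nearly all of these genes, and the CRABP2 vector in 8505C was not accompanied by a change in one direction. In FTC-133, 21 of 38 genes were at least 2-fold higher with siCRABP2 than with siControl and none was 2-fold lower. By the same rule, a difference of at least 1 among genes at 1 FPKM or more in either library, 2.36% of all 12832 genes measured in that line were higher and 2.35% were lower. The genes' median difference was 1.06, against -0.04 for all genes. In BHT-101, 4 of 36 measured genes (OAS2, IFITM1, IFI6 and IFI27) were at least 2-fold higher with siCRABP2 and none was lower, where 0.589% of all 12055 genes were higher and 0.539% lower. Their median was 0.58, against 0.01 for all genes, and 35 of the 36 lay above 0 where 53.3% of all genes did. In 8505C, 25 of the 38 were measured, and with the CRABP2 vector 1 of them (SAMD9) was at least 2-fold higher and 1 (BST2) at least 2-fold lower, where 1.85% of all 11731 genes were higher and 1.86% lower. Their median was -0.04, against 0.02 for all genes, with 12 genes above 0 and 13 below. SAMD9 was at 0.95 after a trend on GC content was removed. Each condition had 1 library, so these differences could not be tested within a line.

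Summed over the 38 genes, the level was 2413 FPKM with siCRABP2 against 1610 FPKM with siControl in BHT-101. It was 1921 FPKM with siCRABP2 against 876 FPKM with siControl in FTC-133. It was 993 FPKM with the CRABP2 vector against 1085 FPKM with the empty vector in 8505C. The sum was higher in both siCRABP2 libraries than in their siControl libraries, and IFITM3 alone made up 395 FPKM of the CRABP2 vector sum and 407 FPKM of the empty vector sum. The heat map of levels shows the genes by role.

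**Figure D1:**
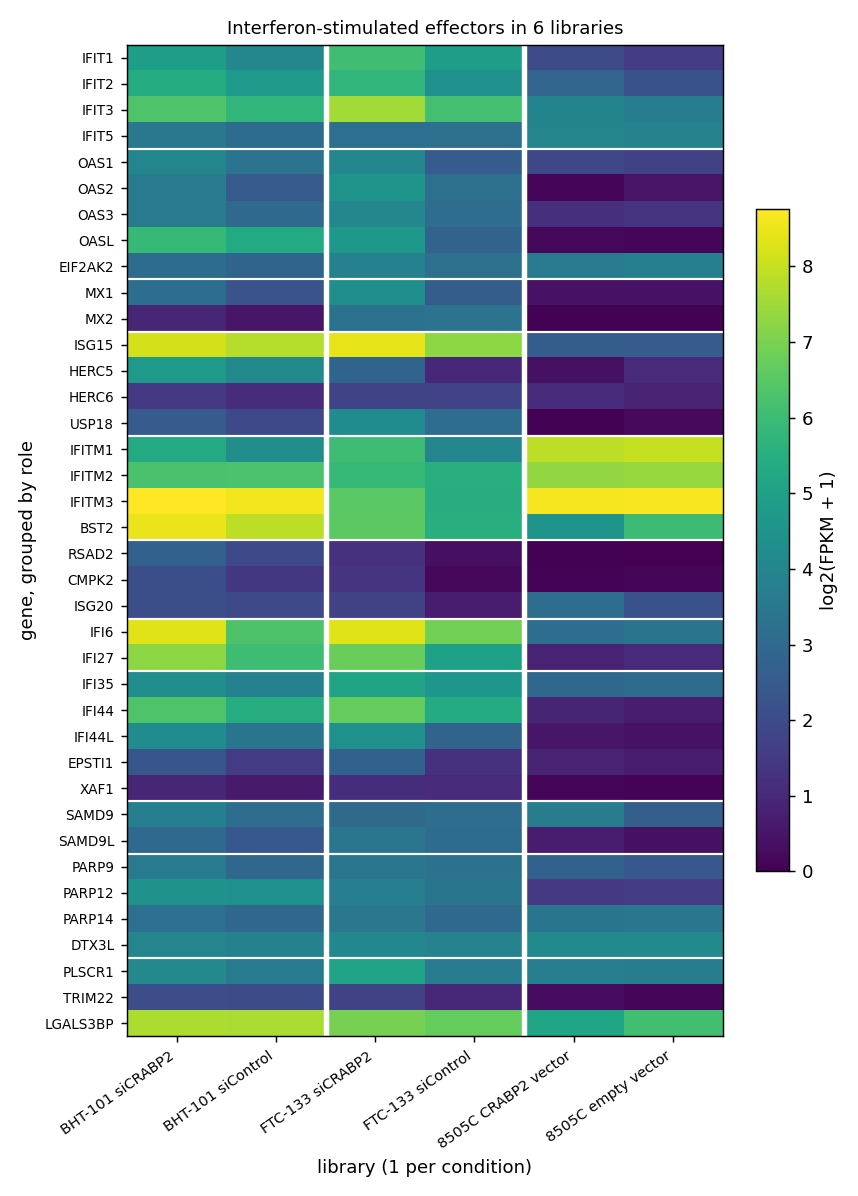
Level of each of the 38 genes (rows, grouped by role, white lines between groups) in each of the 6 libraries (columns) as colour on the log2(FPKM + 1) scale, from 0 (dark) to the highest value (yellow). ISG15, IFI6 and IFI44 are bright in the BHT-101 and FTC-133 columns and dark in 8505C, while the IFITM rows are bright in 8505C, where IFITM3 was 395 FPKM with the CRABP2 vector and 407 FPKM with the empty vector.

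The IFIT proteins bind viral RNA whose 5′ end lacks the host's methylation, and their 4 genes lie side by side on chromosome 10. IFIT1 was 29.02 FPKM with siCRABP2 against 15.4 FPKM with siControl in BHT-101, 66.7 FPKM with siCRABP2 against 28.99 FPKM with siControl in FTC-133, and 2.98 FPKM with the CRABP2 vector against 1.84 FPKM with the empty vector in 8505C. IFIT2 was 41.7 FPKM with siCRABP2 against 25.8 FPKM with siControl in BHT-101, 52.9 FPKM with siCRABP2 against 20.1 FPKM with siControl in FTC-133, and 6.18 FPKM with the CRABP2 vector against 3.63 FPKM with the empty vector. IFIT3, which stabilises IFIT1 on RNA, was 79.5 FPKM with siCRABP2 against 53.3 FPKM with siControl in BHT-101, 187 FPKM with siCRABP2 against 70.1 FPKM with siControl in FTC-133, and 14.4 FPKM with the CRABP2 vector against 11.8 FPKM with the empty vector. These 3 were highest in the siCRABP2 library of FTC-133 and lowest in 8505C, where they were nonetheless somewhat higher with the CRABP2 vector. IFIT5 ran otherwise: it was 10.5 FPKM with siCRABP2 against 7.60 FPKM with siControl in BHT-101, 8.20 FPKM with siCRABP2 against 8.30 FPKM with siControl in FTC-133, and 14.8 FPKM with the CRABP2 vector against 14.1 FPKM with the empty vector, so that its highest levels were in 8505C. The IFIT5 window holds 3 matches to the motif, as do those of IFI6 and HERC5.

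Each read ratio between 2 libraries was given a 95% exact (Clopper-Pearson) interval from the recovered reads. The intervals allow for counting error alone, and sequenced reads that lack molecular identifiers are not independent molecules. In FTC-133 the interval lay above equality for 33 of 38 genes and included it for IFIT5, MX2, HERC6, XAF1 and SAMD9, where it lay above for 32.1% of all genes measured in that line and below for 39.5%. In BHT-101 it lay above equality for 34 of 36 and included it for IFITM2 and TRIM22, where it lay above for 23.7% of all genes and below for 19.2%. In 8505C it lay above equality for 7 of 25, below it for 9 and included it for 9, where it lay above for 35.1% of all genes and below for 30.8%, so that these shares were near those of all genes. By read ratio without a pseudocount, 24 of 38 genes in FTC-133 were at least 2-fold higher with siCRABP2 and 0 lower, against 4.75% of all genes for higher and 6.31% for lower. In BHT-101, 6 of 36 were higher by this ratio and 0 lower, where 1.58% of all genes were higher and 1.12% lower. In 8505C, 2 of 25 were higher with the CRABP2 vector and 2 lower, where 4.56% of all genes were higher and 3.89% lower. The median half-width was 0.09 on the log2 scale in BHT-101, 0.10 in FTC-133 and 0.14 in 8505C. In FTC-133 the differences of IFIT5, MX2 and SAMD9 lay below 0, and after centring each library on its median SAMD9 alone did.

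**Figure D2:**
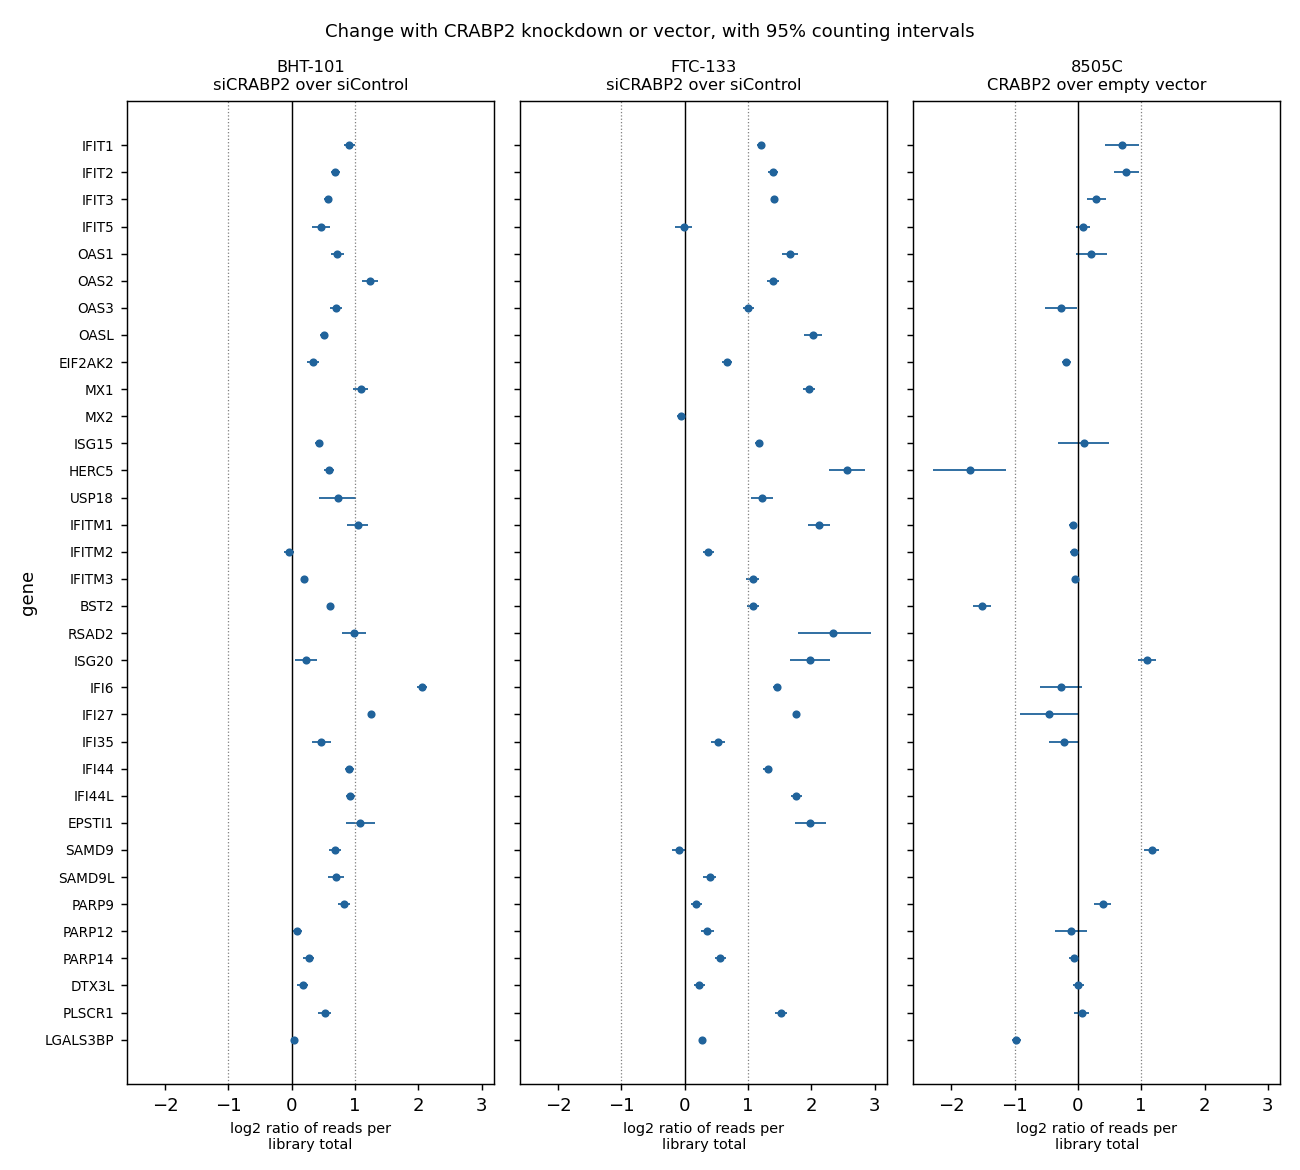
Log2 ratio of reads per library total for the 34 genes that reached 5 FPKM in at least 1 library, siCRABP2 over siControl in BHT-101 and FTC-133 and CRABP2 vector over empty vector in 8505C, where measured. Points are ratios, bars the 95% exact counting intervals, the solid line equality and the dotted lines 2-fold. Most points lie right of the solid line in both knockdown panels, and on either side of it in 8505C.

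The OAS enzymes sense double-stranded RNA and make 2′-5′-linked oligoadenylate, and OAS1, OAS3 and OAS2 are neighbours on chromosome 12. OAS1 was 15.1 FPKM with siCRABP2 against 9.17 FPKM with siControl in BHT-101, 15.5 FPKM with siCRABP2 against 4.90 FPKM with siControl in FTC-133, and 2.62 FPKM with the CRABP2 vector against 2.26 FPKM with the empty vector in 8505C. OAS2 was 10.9 FPKM with siCRABP2 against 4.64 FPKM with siControl in BHT-101, 22.1 FPKM with siCRABP2 against 8.40 FPKM with siControl in FTC-133, and 0.108 FPKM with the CRABP2 vector against 0.391 FPKM with the empty vector. OAS3 was 11.5 FPKM with siCRABP2 against 7.03 FPKM with siControl in BHT-101, 15.4 FPKM with siCRABP2 against 7.69 FPKM with siControl in FTC-133, and 1.30 FPKM with the CRABP2 vector against 1.56 FPKM with the empty vector. The 3 enzymes were higher in both siCRABP2 libraries and low in 8505C. OASL, an OAS-like protein without synthetase activity, was 57.3 FPKM with siCRABP2 against 40.2 FPKM with siControl in BHT-101, 24.2 FPKM with siCRABP2 against 5.94 FPKM with siControl in FTC-133, and 0.142 FPKM with the CRABP2 vector against 0.0747 FPKM with the empty vector. EIF2AK2, which encodes PKR, the kinase that halts translation on sensing double-stranded RNA, was 7.59 FPKM with siCRABP2 against 6.02 FPKM with siControl in BHT-101, 13.4 FPKM with siCRABP2 against 8.46 FPKM with siControl in FTC-133, and 11.1 FPKM with the CRABP2 vector against 12.6 FPKM with the empty vector. PKR lay between 6.02 and 13.4 FPKM in all 6 libraries, while OASL was near 0 in 8505C.

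MX1, a GTPase that blocks influenza and other viruses, was 7.88 FPKM with siCRABP2 against 3.69 FPKM with siControl in BHT-101, 19.5 FPKM with siCRABP2 against 4.998 FPKM with siControl in FTC-133, and 0.357 FPKM with the CRABP2 vector against 0.361 FPKM with the empty vector in 8505C. Its neighbour MX2, which restricts HIV-1, was 0.934 FPKM with siCRABP2 against 0.460 FPKM with siControl in BHT-101, 8.76 FPKM with siCRABP2 against 9.07 FPKM with siControl in FTC-133, and 0.0418 FPKM with the CRABP2 vector against 0.0370 FPKM with the empty vector. In FTC-133, MX1 was 3.90-fold higher with siCRABP2 by reads (95% interval 3.65 to 4.17), while the ratio of MX2 was 0.965 (0.917 to 1.02). The 2 genes are next to each other on chromosome 21 and differed in this line.

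ISG15 is a ubiquitin-like protein, HERC5 its main human ligase and USP18 the protease that removes it and damps the interferon receptor. ISG15 was 293 FPKM with siCRABP2 against 217 FPKM with siControl in BHT-101, 339 FPKM with siCRABP2 against 151 FPKM with siControl in FTC-133, and 5.05 FPKM with the CRABP2 vector against 4.74 FPKM with the empty vector in 8505C. HERC5 was 25.7 FPKM with siCRABP2 against 17.1 FPKM with siControl in BHT-101, 6.08 FPKM with siCRABP2 against 1.03 FPKM with siControl in FTC-133, and 0.323 FPKM with the CRABP2 vector against 1.05 FPKM with the empty vector. USP18 was 4.73 FPKM with siCRABP2 against 2.86 FPKM with siControl in BHT-101, 18.0 FPKM with siCRABP2 against 7.70 FPKM with siControl in FTC-133, and 0.0425 FPKM with the CRABP2 vector against 0.164 FPKM with the empty vector. The modifier, its ligase and its protease were each higher with siCRABP2 in both lines. By reads, HERC5 in FTC-133 was 5.90-fold higher with siCRABP2 (4.87 to 7.20), and in 8505C its ratio of CRABP2 vector to empty vector was 0.309 (0.204 to 0.456). HERC6, the neighbour of HERC5 on chromosome 4, did not exceed 2.43 FPKM in any library.

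Of the membrane factors, the IFITM proteins hinder fusion of viral and endosomal membranes and BST2 (tetherin) holds budding virus at the cell surface. IFITM1 was 39.4 FPKM with siCRABP2 against 19.1 FPKM with siControl in BHT-101, 64.6 FPKM with siCRABP2 against 14.8 FPKM with siControl in FTC-133, and 236 FPKM with the CRABP2 vector against 250.1 FPKM with the empty vector in 8505C. IFITM2 was 74.9 FPKM with siCRABP2 against 77.0 FPKM with siControl in BHT-101, 57.2 FPKM with siCRABP2 against 44.1 FPKM with siControl in FTC-133, and 160.5 FPKM with the CRABP2 vector against 168 FPKM with the empty vector. IFITM3 was 430.1 FPKM with siCRABP2 against 375 FPKM with siControl in BHT-101, 90.2 FPKM with siCRABP2 against 43.0 FPKM with siControl in FTC-133, and 395 FPKM with the CRABP2 vector against 407 FPKM with the empty vector. IFITM2 in BHT-101 was the 1 gene below 0 in that line, and the highest IFITM1 and IFITM2 levels were in 8505C. The 3 genes are related copies, and the annotated exons of IFITM1 and IFITM2 share 351 bases (32.5% of IFITM1 exons and 22.7% of IFITM2 exons), so that their reads are uncertain between them. BST2 was 362 FPKM with siCRABP2 against 237 FPKM with siControl in BHT-101, 92.9 FPKM with siCRABP2 against 44.0 FPKM with siControl in FTC-133, and 22.2 FPKM with the CRABP2 vector against 63.3 FPKM with the empty vector. BST2 had the lowest difference of the 25 measured genes in 8505C, -1.47, with a read ratio of CRABP2 vector to empty vector of 0.351 (0.318 to 0.387). It was thus higher in the library with less CRABP2 transcript in all 3 lines.

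RSAD2 (viperin) makes a chain-terminating nucleotide, and CMPK2, a mitochondrial nucleotide kinase, lies head to head beside it on chromosome 2, with 14 bases of exon in common on opposite strands. RSAD2 was 5.57 FPKM with siCRABP2 against 2.82 FPKM with siControl in BHT-101, 1.39 FPKM with siCRABP2 against 0.273 FPKM with siControl in FTC-133, and 0.0288 FPKM with the CRABP2 vector in 8505C, where it is listed at 0 with the empty vector. CMPK2 was 3.27 FPKM with siCRABP2 against 1.65 FPKM with siControl in BHT-101, 1.55 FPKM with siCRABP2 against 0.131 FPKM with siControl in FTC-133, and 0.0526 FPKM with the CRABP2 vector against 0.0814 FPKM with the empty vector. The pair was 5.08-fold (RSAD2, 3.47 to 7.65) and 11.8-fold (CMPK2, 6.86 to 22.03) higher by reads with siCRABP2 in FTC-133, from levels near 0 with siControl. ISG20, a 3′ exonuclease of single-stranded RNA, was 3.30 FPKM with siCRABP2 against 2.83 FPKM with siControl in BHT-101, 2.35 FPKM with siCRABP2 against 0.596 FPKM with siControl in FTC-133, and 7.74 FPKM with the CRABP2 vector against 3.64 FPKM with the empty vector. ISG20 was therefore higher with siCRABP2 in the knockdown lines and 2.12-fold higher by reads with the CRABP2 vector in 8505C (1.93 to 2.35).

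IFI6 and IFI27 encode small hydrophobic membrane proteins, and IFI6 limits flavivirus replication at the endoplasmic reticulum. IFI6 was 322 FPKM with siCRABP2 against 77.6 FPKM with siControl in BHT-101, 322 FPKM with siCRABP2 against 118 FPKM with siControl in FTC-133, and 7.69 FPKM with the CRABP2 vector against 9.25 FPKM with the empty vector in 8505C. IFI27 was 154 FPKM with siCRABP2 against 64.4 FPKM with siControl in BHT-101, 106 FPKM with siCRABP2 against 31.3 FPKM with siControl in FTC-133, and 0.786 FPKM with the CRABP2 vector against 1.08 FPKM with the empty vector. By reads IFI6 was 4.15-fold higher with siCRABP2 in BHT-101 (3.94 to 4.38) and 2.74-fold higher in FTC-133 (2.62 to 2.87). IFI6 reached the same level in both siCRABP2 libraries and IFI27 was near 1 FPKM in 8505C.

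IFI35, an interferon-induced leucine zipper protein, was 18.4 FPKM with siCRABP2 against 13.3 FPKM with siControl in BHT-101, 33.6 FPKM with siCRABP2 against 23.3 FPKM with siControl in FTC-133, and 6.54 FPKM with the CRABP2 vector against 7.61 FPKM with the empty vector in 8505C. IFI44 was 80.6 FPKM with siCRABP2 against 42.9 FPKM with siControl in BHT-101, 101 FPKM with siCRABP2 against 40.7 FPKM with siControl in FTC-133, and 0.867 FPKM with the CRABP2 vector against 0.601 FPKM with the empty vector. Its neighbour on chromosome 1, IFI44L, was 18.2 FPKM with siCRABP2 against 9.58 FPKM with siControl in BHT-101, 19.9 FPKM with siCRABP2 against 5.86 FPKM with siControl in FTC-133, and 0.460 FPKM with the CRABP2 vector against 0.350 FPKM with the empty vector. Both genes of the IFI44 pair were higher with siCRABP2 and below 1 FPKM in 8505C. EPSTI1, an epithelial-stromal interaction gene, was 4.04 FPKM with siCRABP2 against 1.90 FPKM with siControl in BHT-101, 5.52 FPKM with siCRABP2 against 1.40 FPKM with siControl in FTC-133, and 0.791 FPKM with the CRABP2 vector against 0.613 FPKM with the empty vector. XAF1, a pro-apoptotic antagonist of XIAP, did not exceed 1.22 FPKM, and an annotated RNA on the opposite strand overlaps its exons. Whether counting used strand is not given, so reads of such overlapping pairs cannot be told apart.

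SAMD9 and SAMD9L, neighbours on chromosome 7 that restrict poxviruses and cell growth, differed in pattern. SAMD9 was 12.6 FPKM with siCRABP2 against 7.84 FPKM with siControl in BHT-101, 7.15 FPKM with siCRABP2 against 7.65 FPKM with siControl in FTC-133, and 11.9 FPKM with the CRABP2 vector against 5.31 FPKM with the empty vector in 8505C. SAMD9L was 6.97 FPKM with siCRABP2 against 4.30 FPKM with siControl in BHT-101, 9.92 FPKM with siCRABP2 against 7.54 FPKM with siControl in FTC-133, and 0.595 FPKM with the CRABP2 vector against 0.324 FPKM with the empty vector. SAMD9 was high in the siCRABP2 library of BHT-101 and in the CRABP2 vector library of 8505C, where its read ratio was 2.24 (2.06 to 2.43).

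The ADP-ribosyl transferases showed smaller differences. PARP9 was 11.3 FPKM with siCRABP2 against 6.36 FPKM with siControl in BHT-101, 9.75 FPKM with siCRABP2 against 8.60 FPKM with siControl in FTC-133, and 5.51 FPKM with the CRABP2 vector against 4.20 FPKM with the empty vector in 8505C. DTX3L, the ubiquitin ligase that works as its partner and lies head to head with it, sharing 217 bases of exon on opposite strands, was 15.0 FPKM with siCRABP2 against 13.3 FPKM with siControl in BHT-101, 16.1 FPKM with siCRABP2 against 13.7 FPKM with siControl in FTC-133, and 17.1 FPKM with the CRABP2 vector against 17.0 FPKM with the empty vector. DTX3L thus varied little across all 6 libraries. PARP14 was 8.13 FPKM with siCRABP2 against 6.74 FPKM with siControl in BHT-101, 10.2 FPKM with siCRABP2 against 6.91 FPKM with siControl in FTC-133, and 9.45 FPKM with the CRABP2 vector against 9.84 FPKM with the empty vector. PARP12 was 21.4 FPKM with siCRABP2 against 20.1 FPKM with siControl in BHT-101, 12.3 FPKM with siCRABP2 against 9.60 FPKM with siControl in FTC-133, and 1.77 FPKM with the CRABP2 vector against 1.90 FPKM with the empty vector. None of the 4 was 2-fold apart in any line.

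PLSCR1, a phospholipid scramblase with antiviral activity, was 16.5 FPKM with siCRABP2 against 11.5 FPKM with siControl in BHT-101, 31.6 FPKM with siCRABP2 against 10.99 FPKM with siControl in FTC-133, and 12.3 FPKM with the CRABP2 vector against 11.7 FPKM with the empty vector in 8505C. LGALS3BP, a secreted galectin-3 ligand, was 205 FPKM with siCRABP2 against 199 FPKM with siControl in BHT-101, 123 FPKM with siCRABP2 against 102 FPKM with siControl in FTC-133, and 34.7 FPKM with the CRABP2 vector against 68.1 FPKM with the empty vector. TRIM22, an antiviral ubiquitin ligase, did not exceed 3.15 FPKM. PLSCR1 was 2-fold apart in FTC-133 alone, and LGALS3BP differed most in 8505C, with a read ratio of 0.510 (0.486 to 0.534).

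The 2 knockdown lines were then compared gene by gene. Of the 36 genes measured in both, 33 lay above 0 in both lines, where 27.6% of all 10658 genes measured in both did. The difference was larger in FTC-133 for 30 of the 36 and larger in BHT-101 for 6, where 44.9% of all genes were larger in FTC-133. Across the 36 genes, which share the same 4 libraries and are not independent, Pearson's r between the lines was 0.53 and Spearman's rho 0.59, against a Pearson's r of 0.15 across all genes. CRABP2 itself differed by -3.09 in FTC-133 and by -1.19 in BHT-101. Whether the depth of the knockdown bears on the larger differences in FTC-133 was not tested. In both lines, less CRABP2 transcript and the siCRABP2 reagent itself cannot be told apart.

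**Figure D3:**
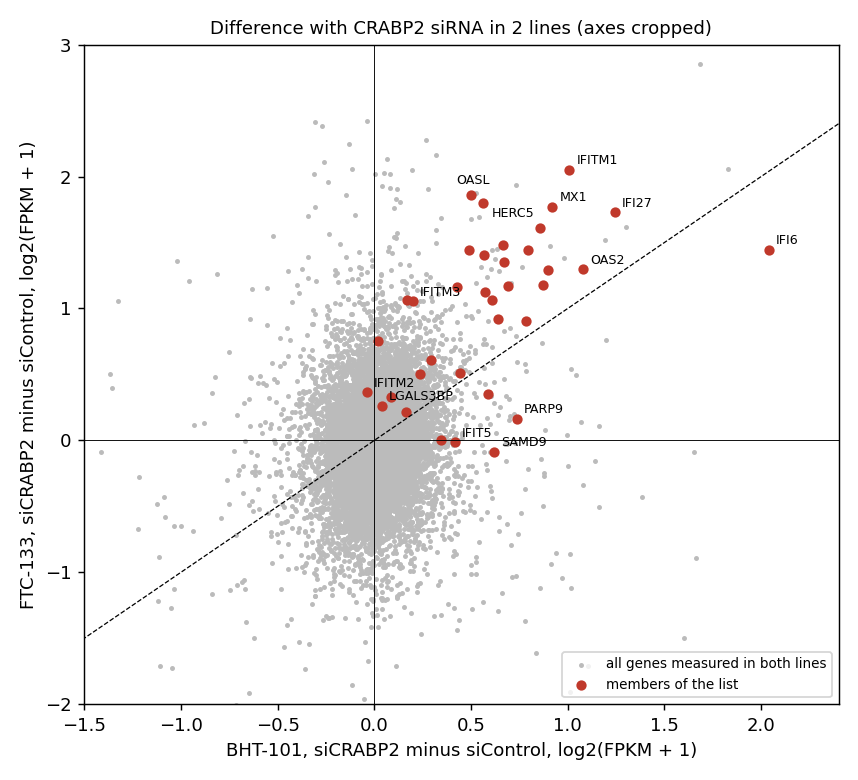
Difference of siCRABP2 minus siControl on the log2(FPKM + 1) scale in BHT-101 (horizontal) and FTC-133 (vertical), with the 36 genes measured in both lines in red and all 10658 genes in grey. The dashed line marks equal differences and the axes are cropped around the red points. Of the red points, 33 lie above 0 in both lines and 30 lie above the dashed line, with IFI6 (2.04 in BHT-101, 1.45 in FTC-133) below it.

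A limma fit over the 4 siRNA libraries with the cell line as a block used the 2 lines as the replicates. All 38 genes were tested and all 38 had an estimate above 0, with a median of 0.81, where 47.6% of the 12953 genes tested did and the median was -0.01. None passed an adjusted p of 0.05 in limma, as 0% of all genes did, with 1 residual degree of freedom. At an unadjusted p under 0.05, 26 of 38 were higher and 0 lower, where 2.42% of all genes were higher and 1.74% lower. IFI6 had the smallest p, with an estimate of 1.74 (SE 0.19) and an adjusted p of 0.338 in limma. IFI27 followed at 1.49 (SE 0.17) with an adjusted limma p of 0.355 and OAS2 at 1.19 (SE 0.16) with one of 0.429. Without BHT-101 the median was 1.06, and without FTC-133 it was 0.58, each the within-line median of the line that was left.

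The 3 lines were combined by setting the lower CRABP2 arm (siCRABP2 and empty vector) against the higher arm (siControl and CRABP2 vector), again in limma with the line as a block. Of 36 genes tested, 35 lay above 0 with a median of 0.53, against 45.4% of 11628 genes and a median of -0.02. None passed an adjusted p of 0.05 in limma, and 0% of all genes did. At an unadjusted p under 0.05, 17 were higher in the lower arm and 0 lower, where 1.66% of all genes were higher and 1.54% lower. The smallest p was that of BST2, with an estimate of 1.05 (SE 0.19) and an adjusted limma p of 0.999. SAMD9 was the 1 gene below 0, at -0.17 (SE 0.29). Leaving out FTC-133 gave a median of 0.22 and leaving out 8505C one of 0.81.

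Levels were next compared between the lines. In the 6-library limma fit, 25 of 36 genes were lower in 8505C than in BHT-101 at an adjusted p under 0.05 and 4 (IFIT5, EIF2AK2, IFITM1 and IFITM2) were higher, where 30.7% of all genes were lower and 30.5% higher. IFIT5 and EIF2AK2 lost their calls after a trend on GC content was removed, which left 2 higher. The genes' median difference was -2.04, against 0.00 for all genes. ISG15 differed by -5.42 (SE 0.29, adjusted limma p 2.27e-05), IFI27 by -5.71 (SE 0.33) and OASL by -5.47 (SE 0.41), while IFITM1 differed by 3.10 (SE 0.40, adjusted limma p 0.000652). Against FTC-133, 25 of 36 genes were lower in 8505C and 5 (IFIT5, IFITM1, IFITM2, IFITM3 and ISG20) were higher, where 33.7% of all genes were lower and 24.2% higher. With no filter 3 were higher, without IFIT5 and ISG20. The genes' median difference from FTC-133 was -1.21, against -0.12 for all genes. IFITM3 there differed by 2.67 (SE 0.28, adjusted limma p 0.000258). The 2 libraries of a line differ in CRABP2 arm and may come from 1 culture, and the line and the kind of transfection (vector or siRNA) cannot be told apart in contrasts with 8505C. Some genes passed the filter through BHT-101 and FTC-133 alone; among the 21 genes at 1 FPKM or more in all 6 libraries, 12 were lower in 8505C and 4 higher in each of these contrasts. Of all 8980 genes at that level, 27.1% were lower and 31.3% higher in 8505C than in BHT-101, and 30.5% were lower and 24.4% higher than in FTC-133.

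The knockdown lines were also set against each other. In FTC-133 against BHT-101, 4 of 36 genes (OAS2, EIF2AK2, USP18 and IFI35) were higher at an adjusted limma p under 0.05, where 26.7% of all genes were, and 9 were lower, where 15.2% of all genes were. OAS2 and EIF2AK2 lost their calls under quantile normalization, centring and GC removal, which left 2 higher, and 5 were lower with no filter. Among the 21 genes at 1 FPKM or more in all 6 libraries, 2 were higher and 5 lower in FTC-133. Of all 8980 genes at that level, 24.9% were higher and 13% lower. The median difference was 0.02, below the 0.17 of all genes. IFITM3 differed by -2.67 (SE 0.28, adjusted limma p 0.000495), HERC5 by -2.53 (SE 0.31, adjusted limma p 0.000982) and BST2 by -2.18 (SE 0.24, adjusted limma p 0.000602), and USP18 by 1.45 (SE 0.25, adjusted limma p 0.00385). ISG15, IFIT2 and IFI44 did not pass the test between these lines, with adjusted limma p of 0.693, 0.996 and 0.786.

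The rest of the pathway was read from lists of ligands, receptors and kinases, transcription factors, sensors, inhibitors and other interferon-stimulated genes. Of 21 interferon ligand genes, 11 had no read in any library and the highest value was 1.01 FPKM, for IFNE with the empty vector in 8505C. IFNB1, encoding interferon beta, had 13 reads with siCRABP2 and 0 with siControl in FTC-133. The depth-scaled ratio was 3.96 when 0 is set to a floor of 3 reads in the siControl library. The lower bound of the exact counting interval of IFNB1 there was 2.78-fold. IFNB1 had 1 read with siCRABP2 and 0 with siControl in BHT-101. Its highest value was 0.570 FPKM, below the 1 FPKM set for a measured gene. IFNL1, a type III interferon, had 8 reads with siCRABP2 against 1 with siControl in FTC-133, a depth-scaled ratio of 7.30 (0.979 to 324), and 6 reads with siCRABP2 against 1 with siControl in BHT-101, a ratio of 7.51 (0.911 to 345). Neither IFNB1 nor IFNL1 had a read in 8505C. The 2 IFNL1 intervals include equality, so a difference was not detectable at this depth. IFNE ran the other way. Its FTC-133 libraries held 9 IFNE reads under siCRABP2 and 24 under siControl, a depth-scaled ratio of 0.342 (0.140 to 0.763). Those of BHT-101 held 14 and 26, a ratio of 0.674 (0.325 to 1.34) whose interval includes equality. IFNE stayed below 1 FPKM in both lines.

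Among STAT and IRF factors, 6 of 7 measured genes lay above 0 in FTC-133 with a median of 0.67, 4 of 7 in BHT-101 with a median of 0.10, and 0 of 6 in 8505C with a median of -0.16. Over all genes, 46.1% lay above 0 in FTC-133, 53.3% in BHT-101 and 52.8% in 8505C, and the share in BHT-101 was near that of all genes. IRF7, the factor that amplifies interferon alpha production, was 9.59 FPKM with siCRABP2 against 7.35 FPKM with siControl in BHT-101, 3.12 FPKM with siCRABP2 against 1.21 FPKM with siControl in FTC-133, and 4.20 FPKM with the CRABP2 vector against 5.13 FPKM with the empty vector. IRF7 was higher in the library with less CRABP2 transcript in each line. In FTC-133 it differed by 0.90 on the log2(FPKM + 1) scale and was 2.58-fold higher by reads with siCRABP2 (1.99 to 3.38). Of 9 measured sensors and adaptors, DDX58, encoding the RNA sensor RIG-I, differed by at least 1 in the FTC-133 knockdown, at 12.3 FPKM with siCRABP2 against 3.90 FPKM with siControl. Over all genes in FTC-133, 2.36% were higher by at least 1. The sensor IFIH1 differed by 0.99 there and was 2.27-fold higher by reads (2.03 to 2.53). The list's median was 0.13 in FTC-133, 0.21 in BHT-101 and 0.00 in 8505C, and the adaptor MAVS was below 0 in FTC-133 (-0.36), BHT-101 (-0.18) and 8505C (-0.35). The receptors and kinases had medians of 0.03 in FTC-133, 0.07 in BHT-101 and 0.08 in 8505C. The feedback inhibitors had medians of 0.15 in FTC-133, 0.13 in BHT-101 and -0.03 in 8505C. No gene of either list was apart by 1 or more on the log2(FPKM + 1) scale. By reads, the kinase JAK2 was 2.12-fold higher with siCRABP2 in FTC-133 (1.77 to 2.57), at 2.29 FPKM against 1.08 FPKM with siControl. Of 27 other interferon-stimulated genes measured in each knockdown line, 25 lay above 0 in FTC-133 with a median of 0.37 and 26 in BHT-101 with a median of 0.21. In 8505C 11 of 25 lay above 0, with a median of -0.04. RTP4 was the 1 gene of that list that differed by at least 1 on the log2(FPKM + 1) scale, at 7.33 FPKM with siCRABP2 against 2.47 FPKM with siControl in FTC-133. As 2.36% of all genes were that much higher in FTC-133, 1 gene of 27 is near the share of all genes. By reads without a pseudocount, HELZ2 (2.04-fold) and SP100 (2.05-fold) in FTC-133 and SLFN5 (2.16-fold) in BHT-101 were also at least 2-fold higher with siCRABP2. By that ratio, 4.75% of all genes in FTC-133 and 1.58% in BHT-101 were at least 2-fold higher.

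**Figure D4:**
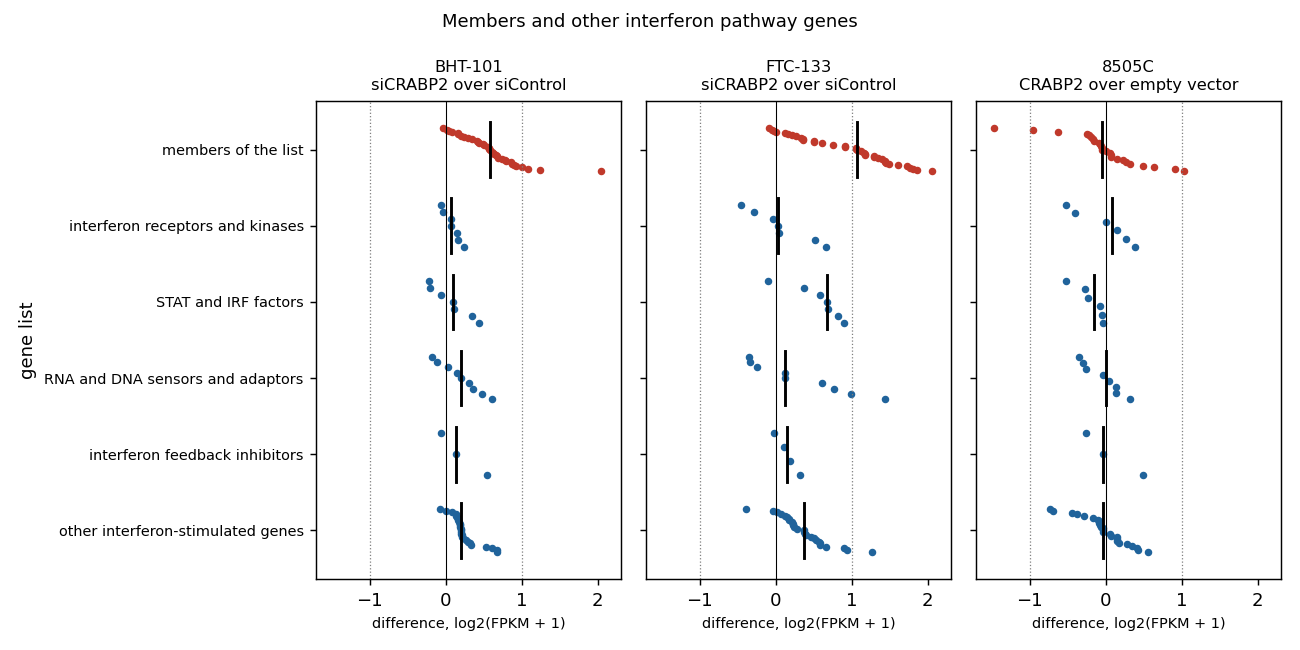
Difference on the log2(FPKM + 1) scale of each measured gene (points) of the 38 effectors (red) and of 5 other interferon pathway lists (blue) in each line, siCRABP2 over siControl in BHT-101 and FTC-133 and CRABP2 vector over empty vector in 8505C. Black bars are medians, the solid line 0 and the dotted lines 2-fold. The effectors' median was 0.58 in BHT-101, 1.06 in FTC-133 and -0.04 in 8505C, and those of receptors and kinases stayed within 0.08 of 0 in all 3 lines.

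The promoter match was set beside the differences as a description. Of the 31 genes with a window, the 25 that held the motif had a median difference of 1.07 in FTC-133, 0.61 in BHT-101 and 0.01 in 8505C. The 6 without it (CMPK2, HERC6, IFI35, OAS1, SAMD9L and XAF1) had medians of 0.43 in FTC-133, 0.52 in BHT-101 and 0.11 in 8505C. Unlike the medians within lines, these take in genes below 1 FPKM in both libraries of a line, whose differences the scale understates. Such genes were CMPK2, SAMD9L, XAF1, RSAD2, EPSTI1, IFI44, IFI44L and MX1 in 8505C, and XAF1 in BHT-101. Windows of CMPK2, IFI35, OAS1 and XAF1 hold GAAA cores, on either strand, closer together than the motif allows. For these genes, the place in the split depends on the spacing rule of the motif. The windows of HERC6 and SAMD9L hold no such close pair. The IFI6 promoter shown above, with 3 matches, went with the largest difference in BHT-101, and the OAS1 promoter, with none, with a difference of 1.48 in FTC-133. IFIT5, with 3 matches, differed by -0.02 in FTC-133.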

How the data were processed

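The 6 libraries, 1 per condition, were analysed from a table of FPKM values deposited by the authors, scaled for exon length and library depth. Reads were checked with FastQC, trimmed with Trimmomatic 0.38 and counted with featureCounts 2.0.0 on GRCh38, per the submitters' processing notes. The sources used here do not give the aligner, the annotation release or the use of strand. Gene names and exon lengths came from GENCODE release 29, which holds 58611 of the 58884 identifiers. Whole reads were recovered from FPKM, exon length and library total at a tolerance of 0.001 reads, with the release 29 length for 18 of the 38 genes and a length found by search for 20.

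Values were taken as log2(FPKM + 1). A gene was measured in a line at 1 FPKM or more in either library. In R 4.3.3, limma 3.58.1 was fitted with a trended variance prior and Benjamini-Hochberg adjustment to the 4 siRNA libraries (1 FPKM or more in at least 2) and to all 6 (in at least 3, with 2 residual degrees of freedom). Libraries were paired by the cell line in the labels. With 1 library per line and arm, the residual is the disagreement between lines in the difference of arms. The p-values, also those of the contrasts between lines, rest on that residual. Each gene's variance was drawn towards the prior from all genes tested. Spread between cultures of the same line and condition was not measured. At so few residual degrees of freedom, that prior carries much of the variance. The siRNA fit and the fit of arms were tested on simulated data in which a changed gene changed alike in every line. Those data therefore do not show how the fits behave where lines disagree. The genes, lists and tests were chosen with earlier results of these data known. Values in all libraries are given for every gene reaching 5 FPKM in 1 or more libraries and for CRABP2. From the other lists up to 4 genes are named, those with the largest difference in a knockdown line. CMPK2, MAVS, SLFN5 and the ligand genes IFNB1, IFNL1 and IFNE were named after their values were seen.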

Additional observations from a re-analysis of the deposited data

Results flagged for a closer look

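SAMD9, IFIT5 and IFITM2 had differences of opposite sign in the 2 knockdown lines, and the difference between the lines was not tested. SAMD9 differed by -0.08 in FTC-133 and by 0.62 in BHT-101 (siCRABP2 minus siControl, log2(FPKM + 1)), a gap of -0.70. IFIT5 differed by -0.02 in FTC-133 and by 0.42 in BHT-101, a gap of -0.43. IFITM2 differed by 0.37 in FTC-133 and by -0.04 in BHT-101, a gap of 0.41. For each of the 3, the interval of the line nearer to 0 included equality, so opposite directions are not shown, and after centring on the median IFIT5 lay above 0 in both lines.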

How the results depend on the processing

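With 1 library per condition, counts within a line have no replicate check, and depth limits the genes near 0, most of them in 8505C. Alternatives were a pseudocount of 0.1, no filter, a filter at 5 FPKM, quantile normalization, centring on the median, removal of a loess trend on GC content, limma without the variance trend, and leaving out each line. The ratio of recovered reads was added after seeing the data. No direction of a called value reversed. As no gene was called in the siRNA fit or the fit of arms, for single genes this covers the differences within lines and the contrasts between lines. The FTC-133 median was 1.19 with a pseudocount of 0.1. In 8505C the genes at least 2-fold higher numbered 2 with that pseudocount, 0 after GC removal and 2 by reads, and those lower numbered 2 with that pseudocount, 2 after quantile normalization and 2 by reads. In BHT-101, 3 genes in place of 4 were 2-fold higher after quantile normalization and after centring, without IFITM1. After centring, 1 gene of 38 lay below 0 in FTC-133, in place of 3.

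For 8505C against BHT-101 the median was -2.67 with a pseudocount of 0.1, and 2 genes were higher after GC removal, without EIF2AK2 and IFIT5. For 8505C against FTC-133 the median was -1.95 with that pseudocount and -1.68 at 5 FPKM, and 3 genes were higher with no filter. For FTC-133 against BHT-101, 2 genes were higher, without OAS2 and EIF2AK2, under each of quantile normalization, centring and GC removal, and 5 were lower with no filter. The cause was not tested. Leaving out a line gave medians from 0.58 to 1.06 in the siRNA fit and from 0.22 to 0.81 in the fit of arms. With no replicate block, so that the pairing by cell line was ignored, the medians were 0.81 and 0.53. Each line has 1 library per arm, so leaving out the line could not change these estimates, and only the p-values could move. None of the genes passed an adjusted p of 0.05 in limma, and 8 and 0 had an unadjusted p under 0.05. The share of all genes under 0.05 was not taken without the block, so these counts have no background beside them.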
